A study of Mus musculus with 4 samples.

Results

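Amino acids cross cell membranes through carrier proteins that are grouped into families by sequence. The 63 genes described here are those of 18193 genes on the array whose symbol begins with Slc1a, Slc3a, Slc6a, Slc7a, Slc36a, Slc38a or Slc43a. Of these, 60 encode membrane proteins of the 7 families and 3 (Slc36a1os, Slc6a19os and Slc7a6os) only carry a host gene's symbol, as genes on its opposite strand. The samples were organoids of mouse intestine, which are cultures of its epithelium grown in Matrigel, with 1 Affymetrix expression array for each of 4 groups: Tacc3 wt/wt at day 4, Tacc3 fl/fl at day 4, Tacc3 wt/wt at day 6 and Tacc3 fl/fl at day 6. All 4 cultures, the wt/wt controls included, received 4OHT (4-hydroxytamoxifen) for 24 hours, which the study used to recombine Apc and Tacc3. Apc encodes a tumour suppressor that restrains Wnt signalling and Tacc3 a spindle protein. The sample descriptions call the day 4 organoids normal and the day 6 organoids Apc-deficient, while the study design describes recombination of both genes before either collection, so the Apc state of each array is not settled. The sources used here do not name the Cre driver, the exons that were floxed, the age and strain of the mice or the number of organoid lines.

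In the small intestine, enterocytes take up amino acids from the lumen through carriers of the apical brush border and release them to the blood through others of the basolateral membrane. Several carriers are heterodimers, in which a heavy subunit of the Slc3 family brings a light subunit of the Slc7 family to the membrane. Dividing cells rely on a different set, which brings in glutamine and exchanges it for essential amino acids, and many Slc1 and Slc6 members are best known for clearing transmitters from brain synapses.

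Since each group had 1 array, no value has a replicate error, and a difference was called by its size alone: at least 2-fold, which is 1 on the log2 scale. No p-value was computed for it. Differences are of log2(intensity + 16), which understates those of dim genes, and each gene was read from its brightest probe set. Pairs of intensities and of day differences are given with wt/wt first and fl/fl second, and pairs of genotype differences with day 4 first. Tacc3 itself read 184 and 59.8 at day 4, and 167 and 49.7 at day 6, and whether its probe set lies in the deleted part is not known here. Median intensities of the 4 arrays lay between 15.4 and 17.7. Their 95th percentiles differed more, with 303 and 361 at day 4 and 424 and 439 at day 6, and the part of this in the differences below was not tested. For Actb, the ratio of its 5' to its 3' control probe sets, a measure of RNA and labelling quality, was 0.0610 and 0.0627 at day 4 and 0.180 and 0.261 at day 6, and that of Gapdh 0.208 and 0.142 against 0.411 and 0.524. These ratios moved with the day, and their part in the day differences below was not tested. Most markers of cells outside the epithelium were dim: 1 of 4 mesenchymal, 0 of 3 endothelial and 1 of 5 neural and glial markers measured reached the median of all probe sets, an intensity of 16.9. Of the immune markers 2 of 4 did, Cd3e and Lyz2. Cd3e read 27.1 and 18.5 at day 4 and 13.7 and 15.3 at day 6. Lyz2, which is closely related to the Paneth cell lysozyme Lyz1, was bright, with 1887 and 2857 at day 4 and 1533 and 1136 at day 6. Which cells gave the Lyz2 values was not tested.

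The start regions of the 4 carriers that were at least 2-fold higher at day 6 in both genotypes are shown first, since the day comparison turns on them, with those of Slc7a11 and Slc1a4, which hold the ATF4 element discussed further on. The sequences are RefSeq's, of assembly GRCm38.p6, written 5′ to 3′ on the strand of the gene, and the capitals mark matches to the searched motifs.
Slc3a1 (chr17:85028197-85028346, plus strand, the 150 bases before the gene start): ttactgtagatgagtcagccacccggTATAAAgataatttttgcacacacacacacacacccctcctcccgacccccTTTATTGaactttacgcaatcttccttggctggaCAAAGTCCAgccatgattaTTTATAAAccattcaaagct
Slc7a9 (chr7:35448942-35449091, plus strand, 150 bases before the first listed start): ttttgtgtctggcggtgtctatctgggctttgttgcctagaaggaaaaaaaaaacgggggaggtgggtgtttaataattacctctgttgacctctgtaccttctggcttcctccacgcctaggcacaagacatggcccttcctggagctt
Slc6a19 (chr13:73692637-73692786, minus strand, 150 bases before the start): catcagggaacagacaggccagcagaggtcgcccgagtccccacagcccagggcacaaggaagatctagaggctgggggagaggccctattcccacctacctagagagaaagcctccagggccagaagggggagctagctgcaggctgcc
Slc6a20a (chr9:123678833-123678982, minus strand, 150 bases before the start): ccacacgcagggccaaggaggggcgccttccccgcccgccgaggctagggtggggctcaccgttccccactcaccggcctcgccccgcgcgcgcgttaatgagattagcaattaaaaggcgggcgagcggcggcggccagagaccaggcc
Slc7a11 (chr3:50443614-50443703, minus strand, 90 bases before the start): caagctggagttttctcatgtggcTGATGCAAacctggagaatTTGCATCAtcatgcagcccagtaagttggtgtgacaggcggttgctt
Slc1a4 (chr11:20332704-20332773, minus strand, from 60 bases before to 10 after the start): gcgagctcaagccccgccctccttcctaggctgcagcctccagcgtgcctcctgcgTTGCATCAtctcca

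The motifs were sought on both strands of windows from 250 bases before to 50 after each gene start, which were given for 46 of the 63 genes and for 14452 genes of the array. CAAAGTCCA, the core of binding sites of the enterocyte factor HNF4, matched only Slc3a1 among the 46, where it began 39 bases before the start, and 0.588% of all genes. TTTATNG, a CDX2-type motif, matched Slc3a1 and Slc7a15 and 9.76% of all genes. TATAAA matched 6 of the 46 (Slc1a3, Slc38a4, Slc3a1, Slc43a1, Slc7a1 and Slc7a15) and 11.5% of all genes, and the 2 matches nearest the start of Slc3a1 overlap each other. The HNF1 motif matched none of the 46 and 0.0692% of all genes. No searched motif was shared by the 4 carriers: Slc7a9, Slc6a19 and Slc6a20a held no match in their windows. Nor did they share base composition, with 4 CpG dinucleotides in the 300-base window of Slc6a19, 6 in each of those of Slc7a9, 7 in that of Slc3a1 and 25 in that of Slc6a20a, against a median of 16 over all promoters. A match describes the letters only and is not evidence of binding.

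The comparison of day 6 with day 4 asks how the carriers differed between the days, in each genotype. Slc3a1, Slc7a9, Slc6a19 and Slc6a20a, all known from the brush border of absorptive epithelium, were at least 2-fold higher at day 6 in both genotypes, and no member was at least 2-fold lower in both. These 4 of 63 members (6.35%) compare with 5.87% of all genes 2-fold higher in both genotypes, and the 0 lower members with 0.846% of all genes. The share of the families as a whole was thus close to that of the array. Over all genes 1068 were higher and 154 lower in both genotypes, a split that quantile normalization turned into 576 and 423, with 4 members higher and 3 lower (Slc1a4, Slc6a7 and Slc6a9). The median difference of the 63 members was -0.10 and -0.09, beside -0.08 and -0.05 over all genes.

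**Figure D1:**
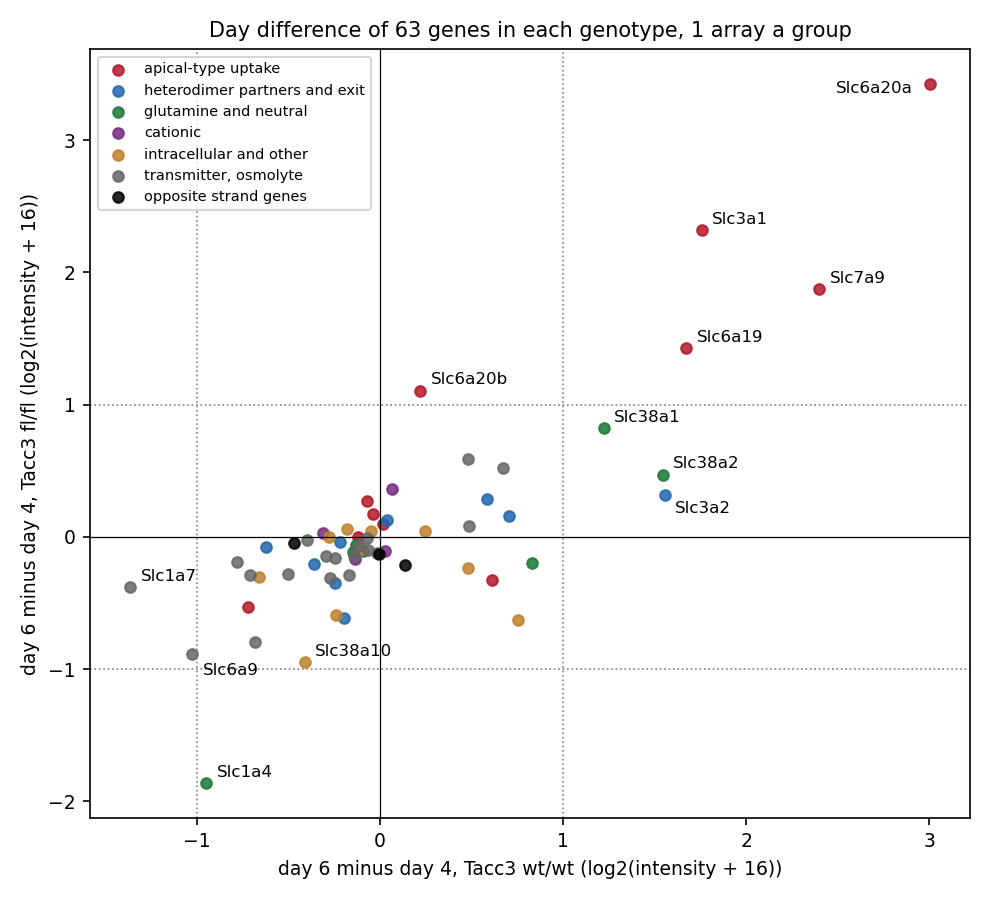
Day difference of the 63 genes on the log2(intensity + 16) scale, wt/wt organoids on the horizontal axis and fl/fl organoids on the vertical axis, 1 point a gene coloured by role, with dotted lines at 2-fold. Slc3a1, Slc7a9, Slc6a19 and Slc6a20a lie beyond 2-fold on both axes, and most other genes lie near 0.

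Slc6a20a, the SIT1 carrier of proline and other imino acids, read 20.9 and 14.8 at day 4, and 279 and 315 at day 6. Both day 6 arrays were far above both day 4 arrays, of which the fl/fl array lay below the median of all probe sets. The differences of 3.0 and 3.42 were the highest of the 63 members in each genotype. Slc7a9, the light subunit of the exchanger that takes up cystine and dibasic amino acids, read 47.3 and 88.9 at day 4 against 318 and 368 at day 6. Its day groups did not overlap, with differences of 2.40 and 1.87.

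Slc3a1 encodes rBAT, the heavy subunit that pairs with the Slc7a9 protein, and loss of either subunit causes cystinuria. It read 31.9 and 33.1 at day 4, and 146 and 229.6 at day 6. The day 4 arrays were nearly equal and both day 6 arrays were higher, by 1.76 and 2.32. Slc6a19 encodes B0AT1, the main sodium-coupled carrier of neutral amino acids in the brush border. It read 16.9 and 27.1 at day 4 and 88.9 and 99.8 at day 6, with differences of 1.67 and 1.43. Its second, dimmer probe set went the same way at lower intensity, by 0.66 and 0.74.

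Enterocyte markers moved in the same direction between the same arrays. Of the 10 listed, 9 were measured and 8 reached the median of all probe sets. At day 6, 4 were 2-fold higher in both genotypes, beside 5.87% of all genes, and the markers had medians of 1.10 and 2.04. Their summed intensity was 1767 and 2154 at day 4 and 7609 and 10754 at day 6. No marker was at 0, but Treh lay below the median of all probe sets on every array. Fabp1 (0.06 and 1.13), Lct (0.08 and 0.66) and Treh (0.02 and 0.13) hardly differed between the days in wt/wt organoids. Enpep, a brush border aminopeptidase, differed by 4.44 and 4.75, and the lipid carrier gene Apoa1 by 2.4 and 2.45. Alpi, the intestinal alkaline phosphatase, differed by 1.57 and 2.04. In organoids measured in bulk, more cells of a type and more RNA per cell of that type cannot be told apart, and the part of the enterocyte markers in the carriers' differences was not tested. The epithelial marker Epcam was also higher, by 2.39 and 1.69, while the keratin Krt8 differed by 0.21 and 0.04.

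Several other carriers of apical membranes did not follow. Slc1a1, which takes up glutamate and aspartate, read 98.2 and 71.0 at day 4 and 95.1 and 81.9 at day 6, so that the day groups overlapped. A dimmer probe set of the gene differed by 0.57 and 1.35 between the days, where the brightest had -0.04 and 0.17. Slc36a1, a proton-coupled carrier of small amino acids, read 27.5 and 41.7 at day 4 and 50.5 and 30.0 at day 6, differences of 0.61 and -0.33. Slc6a18, known from the kidney brush border, read 28.8 and 20.3 at day 4 and 11.2 and 9.20 at day 6, and its differences of -0.72 and -0.53 were opposite to those of its relative Slc6a19. Slc6a14, the broad carrier of neutral and cationic amino acids, stayed between 5.77 and 8.17 on all arrays, and Slc7a15 between 7.49 and 12.3, both below the median of all probe sets.

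Neighbouring members were compared as well. Slc6a18 and Slc6a19 are adjacent protein-coding genes on chromosome 13 and moved in opposite directions between the days. Slc6a20b and Slc6a20a are adjacent on chromosome 9. Slc6a20b read 26.5 and 10.7 at day 4 and 33.5 and 41.6 at day 6, differences of 0.22 and 1.11, so that it was 2-fold higher in fl/fl organoids alone, beside 3.0 and 3.42 for Slc6a20a. On chromosome 15, Slc38a1 (1.22 and 0.82) and Slc38a2 (1.55 and 0.47) adjoin Slc38a4, which was dim and differed by -0.09 and -0.11.

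**Figure D2:**
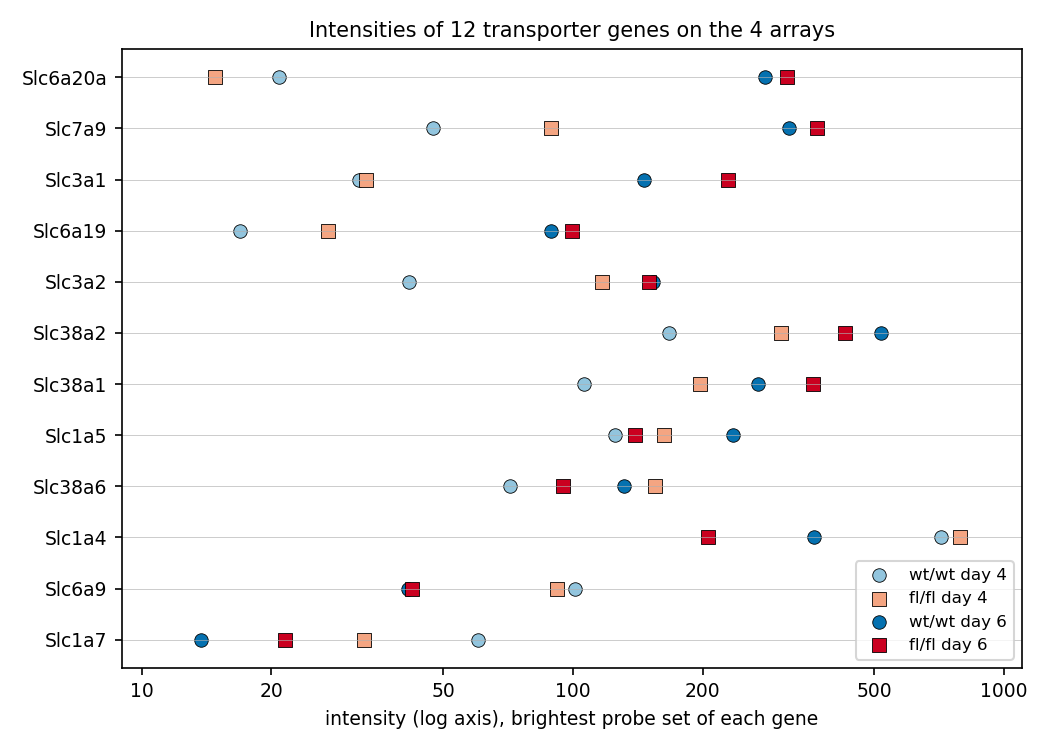
Intensity of 12 transporter genes on the 4 arrays, read from each gene's brightest probe set and drawn on a log axis; circles are wt/wt and squares fl/fl organoids, pale at day 4 and dark at day 6. In the top 4 rows both dark symbols lie to the right of both pale ones, and for Slc1a4, Slc6a9 and Slc1a7 to the left; rows are not to be compared with each other.

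Among the heterodimer partners, the heavy subunit Slc3a2 (4F2hc or CD98) differed between the days in wt/wt organoids only by the 2-fold rule. It read 41.7 and 117 at day 4, and 154 and 149.9 at day 6. The wt/wt array at day 4 was the low one, and the other 3 were closer together, which gave day differences of 1.55 and 0.32. Its light subunits differed less. Slc7a5, the LAT1 carrier of large neutral amino acids in growing cells, read 80.2 and 122 at day 4 and 141 and 138 at day 6, with differences of 0.71 and 0.16. Slc7a7, the y+LAT1 subunit through which enterocytes release dibasic amino acids, read 79.4 and 124 at day 4 and 127 and 155 at day 6, with 0.58 and 0.29.

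Slc7a6, the y+LAT2 subunit, read 116 and 140.4 at day 4 and 99.7 and 86.2 at day 6, lower at day 6 (-0.19 and -0.61), but its second probe set was higher, by 1.27 and 0.54. Slc7a8 (LAT2), Slc7a10 (Asc-1) and Slc7a11 (the cystine and glutamate exchanger xCT) lay below the median of all probe sets on average. The exit carriers Slc43a1 and Slc43a2, which act without a heavy subunit, differed by -0.62 and -0.07 and by -0.24 and -0.35. Slc43a1 read 47.9 and 33.6 at day 4 and 25.6 and 31.1 at day 6, and Slc43a2 read 122 and 181 against 101 and 139. Both were lower at day 6 in each genotype, short of 2-fold. Both subunits of the apical cystine exchanger were thus at least 2-fold higher at day 6 in both genotypes, whereas none of the 6 light subunits named here as partners of Slc3a2 differed 2-fold on its brightest probe set in either genotype.

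**Figure D3:**
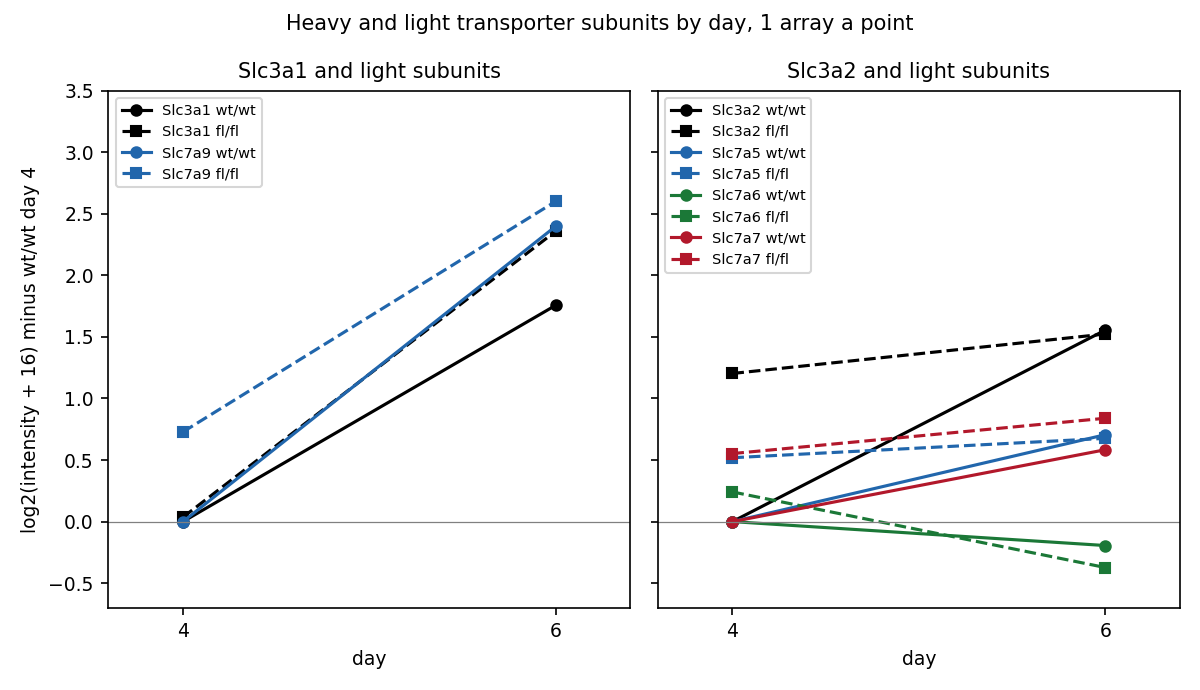
Difference of each subunit gene from its own wt/wt day 4 array, on the log2(intensity + 16) scale, against day, with solid lines for wt/wt and dashed lines for fl/fl organoids and 1 array a point. Slc3a1 and Slc7a9 end at 1.76 or above, while Slc7a5, Slc7a6 and Slc7a7 stay below 1 and Slc3a2 in fl/fl organoids starts at 1.20.

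Carriers of glutamine and small neutral amino acids differed in both directions. Slc38a2 (SNAT2), a sodium-coupled carrier known to be induced when amino acids run short, read 167 and 304 at day 4 and 517 and 427 at day 6. Both day 6 arrays were higher, by 1.55 and 0.47. Its other 2 probe sets above the median differed less or the other way, with 0.31 and 0.07 for one and -0.42 and -0.62 for the other. Slc38a1 (SNAT1) read 106 and 197 at day 4 and 269 and 361 at day 6, higher by 1.22 and 0.82. Its other probe set gave 0.01 and 0.33. Stem cell markers were higher between the same arrays, 4 of 6 at least 2-fold in both genotypes, beside 5.87% of all genes. Their medians were 2.41 and 1.24, and their part in the values of these carriers was not tested. Slc1a5 (ASCT2), the exchanger that brings glutamine into dividing cells, read 125 and 163 at day 4 and 235 and 139.6 at day 6. The wt/wt array at day 6 was the highest of the 4, and the differences were 0.83 and -0.20. Its second probe set above the median was higher at day 6 in both genotypes, by 0.84 and 0.49.

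Slc1a4 (ASCT1), a carrier of serine, alanine and cysteine, read 713 and 790.5 at day 4 and 362 and 206 at day 6, with differences of -0.95 and -1.86. Both day 6 arrays lay below both day 4 arrays, and the fl/fl value was the lowest day difference among the 63 members in fl/fl organoids. Its probe sets disagreed: one gave -0.67 and -0.79, and another gave 1.20 and 0.14. In the same fl/fl comparison 3 of 6 goblet cell markers were at least 2-fold lower, beside 1.82% of all genes, with a median of -0.78. Among the 6, Clca1 was higher, by 0.99, and Fcgbp hardly differed (-0.06). The wt/wt median of the goblet cell markers was 0.17. The 3 measured Paneth cell markers had median day differences of -0.53 and -0.98, although Lyz1 differed by 0.03 and -0.26. The part of either marker set in the values of Slc1a4 was not tested. Slc38a10, a member of the SNAT family, went the same way, with 1189 and 1258 at day 4 and 890.3 and 645 at day 6, differences of -0.41 and -0.95. Of its 7 probe sets above the median, all were lower in fl/fl organoids (-0.95 to -0.28), and 1 was higher in wt/wt organoids, by 0.11.

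In wt/wt organoids 7 members were 2-fold higher at day 6 (11.1%, beside 11.5% of all genes) and 2 were 2-fold lower (3.17%, beside 1.86%). In fl/fl organoids 5 were 2-fold higher (7.94%, beside 7.69%) and 1 was 2-fold lower (1.59%, beside 1.82%). The shares of higher members were near those of the array. The 2 lower in wt/wt organoids belong to the transmitter carriers. Slc6a9 (GlyT1), which takes up glycine, read 101.1 and 91.8 at day 4 and 41.6 and 42.3 at day 6, lower (-1.02 and -0.89), so that the fl/fl value stopped just short of the threshold. Its second probe set gave -0.50 and -0.09. Slc1a7, a glutamate carrier known from the retina, read 60.4 and 32.8 at day 4 and 13.7 and 21.5 at day 6, lower (-1.36 and -0.38), and its day 6 wt/wt value lay below the median of all probe sets.

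The remaining transmitter, osmolyte and cationic carriers did not reach 2-fold on their brightest probe set. Of 19 carriers of transmitters, osmolytes and related solutes, 16 were lower at day 6 in each genotype, with medians of -0.25 and -0.14, and 8 of them lay below the median of all probe sets. Over all 18193 genes, 10728 were lower in wt/wt organoids and 10909 in fl/fl. The taurine carrier Slc6a6 was one of the higher ones, with 244 and 269.8 at day 4 and 397 and 394 at day 6 (0.67 and 0.52). Its other 2 probe sets above the median disagreed, with 1.47 and 1.30 on one and -0.34 and -0.28 on the other. The serotonin carrier Slc6a4, which enterocytes express, differed by 0.48 and 0.59, and the proline carrier Slc6a7 by -0.68 and -0.80. The cationic carrier Slc7a1 (CAT1) hardly differed, with 513 and 577 at day 4 and 464 and 513 at day 6 (-0.14 and -0.16). The lysosomal arginine sensor Slc38a9 differed by 0.48 and -0.24.

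The 27 members whose mean lay below the median of all probe sets spanned intensities of 3.67 to 28.8, and none of their differences between days or genotypes went beyond -0.72 or 0.43. These include the GABA carriers Slc6a11, Slc6a12 and Slc6a13, the cationic carriers Slc7a2 and Slc7a3, and Slc38a4 and Slc38a5. Since 16 was added to every intensity, a 2-fold difference downward was hardly possible for genes this dim. The other 36 members reached the median.

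**Figure D4:**
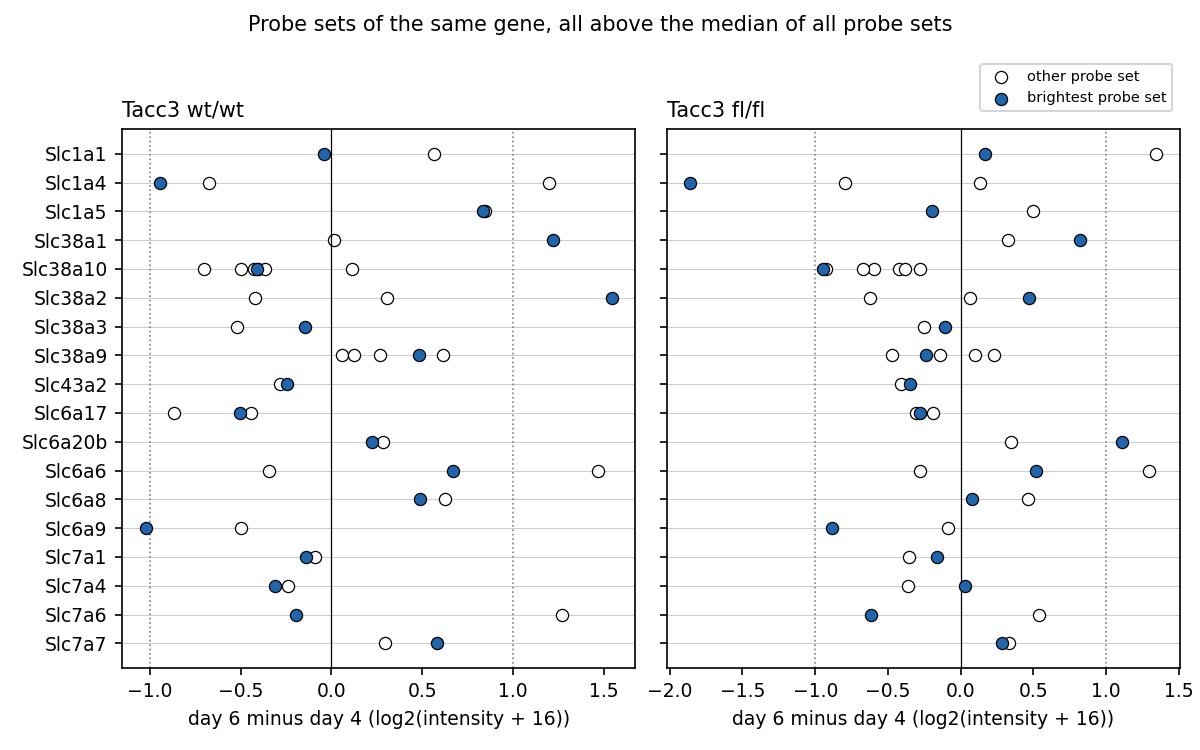
Day difference of each probe set above the median of all probe sets, for the 18 genes with several such probe sets, in wt/wt (left) and fl/fl organoids (right), with the brightest probe set filled and dotted lines at 2-fold. In 9 of the 18 genes the probe sets do not all lie on the same side of 0 in each genotype, among them Slc1a4, Slc38a2 and Slc7a6.

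Probe sets of the same gene thus set a limit on these values: of 18 members with several probe sets above the median, 9 had the same direction on all of them in each genotype and 9 did not. Among the 4 carriers that were 2-fold higher in both genotypes, Slc3a1, Slc7a9 and Slc6a20a have 1 probe set each and Slc6a19 has 2.

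Setting the fl/fl arrays against the wt/wt arrays of the same day asks which carriers went with the floxed Tacc3 gene. At day 4, Slc3a2 alone among the 63 members was 2-fold higher in fl/fl organoids, by 1.20, beside 0.868% of all genes, and 0 members were 2-fold lower, beside 0.066%. At day 6, 0 members were 2-fold higher, beside 0.132% of all genes, and 0 were 2-fold lower, beside 0.357%. Over all genes 158 were higher and 12 lower at day 4, which quantile normalization turned into 118 and 40, with Slc3a2 still the 1 member called. The medians of the 63 members were 0.01 at day 4 and 0.02 at day 6, beside 0.02 and 0.02 over all genes. The day 4 value of Slc3a2 has no replicate check, it fell under 2-fold with a pseudocount of 64 in place of 16, and it was -0.03 at day 6.

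The 4 brush border carriers showed no common genotype difference. The fl/fl minus wt/wt difference of Slc7a9 was 0.73 at day 4 and 0.20 at day 6, that of Slc3a1 0.04 and 0.60, that of Slc6a19 0.39 and 0.14, and that of Slc6a20a -0.26 and 0.16. At day 6 all 4 were higher in fl/fl organoids, short of 2-fold, and the enterocyte markers had a median genotype difference of 0.49 at that day and -0.11 at day 4. The part of these markers in the carriers' values was not tested.

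By role, the 7 carriers of glutamine and small neutral amino acids had a median genotype difference of 0.15 at day 4, 5 being above 0, and of -0.02 at day 6, 3 being above 0. The 9 basolateral carriers and subunits had medians of 0.24, with 5 above 0, and -0.03, with 4 above 0. Over all genes the medians were 0.02 at day 4 and 0.02 at day 6. Those that reached the median of all probe sets had a median of 0.15 at day 4 and 0.05 at day 6. Of the 7 and the 9 carriers, 2 and 3 lay below the median of all probe sets. Below Slc3a2, the highest day 4 differences were those of Slc38a6 (0.97, and -0.41 at day 6), Slc38a2 (0.81 and -0.27), Slc38a1 (0.80 and 0.40), Slc7a9, Slc6a8 (0.65 and 0.24), a creatine carrier, Slc7a7 (0.55 and 0.26) and Slc7a5 (0.52 and -0.03). These genes belong to several role groups and none reached 2-fold. Other probe sets above the median gave 0.28 and 0.59 for Slc38a1, the reverse order, 0.02 and 0.06 for Slc7a7, and 0.57 and 0.40 for Slc6a8.

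Cell type markers also differed between the genotypes. Over all genes, 0.868% were 2-fold higher and 0.066% lower in fl/fl organoids at day 4, and 0.132% were higher at day 6. Stem cell markers had a median genotype difference of 0.61 at day 4, with 1 of 6 at least 2-fold higher and 1 lower, and of -0.45 at day 6, and 4 of them (Lgr5, Smoc2, Axin2 and Rgmb) were above 0 at day 4 and below 0 at day 6. Goblet cell markers had medians of 0.71, with 2 of 6 at least 2-fold higher, and 0.04, although Clca1 differed by 0.09 and 0.80. Paneth cell markers had medians of 0.52, with 1 of 3 at least 2-fold higher, and -0.01. Enteroendocrine and tuft cell markers went the other way, with medians of 0.17 and 0.96, 3 of 6 being 2-fold higher at day 6, and of -0.14 and 0.38. The part of these markers in the carriers' genotype differences, and in the shifts between the days given next, was not tested.

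Slc38a6, a member of the SNAT family, read 71.5 and 155 at day 4 and 132 and 94.9 at day 6. The higher genotype was fl/fl at day 4 and wt/wt at day 6. Its second probe set, dim at 7.53 to 9.39, gave genotype differences of -0.05 and -0.11. At day 6, Slc1a4 (-0.77), Slc38a9 (-0.76) and Slc1a5 (-0.69) were lower in fl/fl organoids, short of 2-fold. For Slc1a4 only the brightest probe set had a difference of this size, and its other 2 gave -0.07 and 0.16. The genotype difference was lower at day 6 than at day 4 by at least 2-fold for 4 members (6.35%), Slc38a6 (-1.38), Slc3a2 (-1.23), Slc38a2 (-1.07) and Slc1a5 (-1.03), beside 2.57% of all genes, and 0 members shifted 2-fold upward, beside 0.418%. These shifts were sized from 1 array a group and were not tested.

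**Figure D5:**
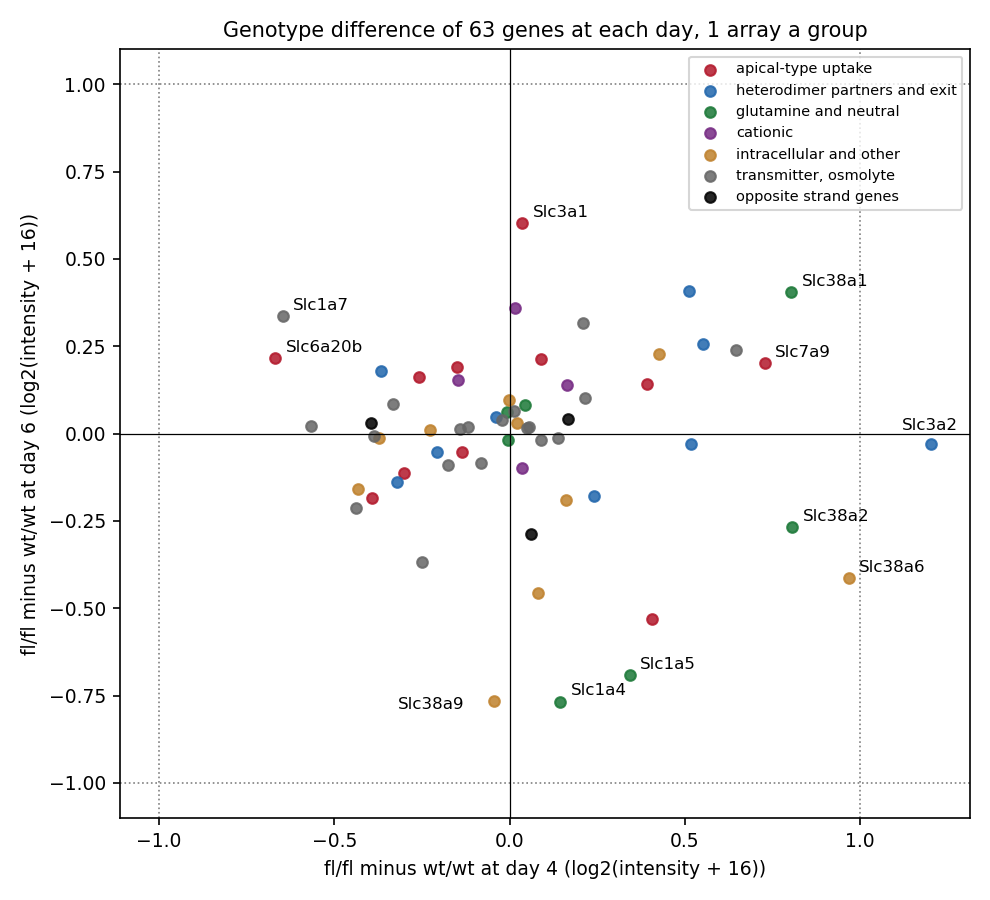
Genotype difference (fl/fl minus wt/wt) of the 63 genes on the log2(intensity + 16) scale, at day 4 on the horizontal and day 6 on the vertical axis, 1 point a gene coloured by role, with dotted lines at 2-fold. Slc3a2 at 1.20 is the only gene past a dotted line, and Slc38a6, Slc38a2 and Slc1a5 lie to the right of 0 and below it.

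Genes that respond to amino acid shortage were examined beside the carriers, since the transcription factor ATF4 is known to raise Slc7a11, Slc3a2, Slc7a5, Slc1a4 and Slc38a2 together with Asns, which makes asparagine. TGATGNAA, the element that ATF4 and C/EBP factors bind, matched the windows of 4 of 46 members (Slc1a4, Slc6a21, Slc7a7 and Slc7a11), beside 3.24% of all genes. Slc7a11 holds it in both orientations, as printed above, and read 14.7 and 10.6 at day 4 and 7.91 and 7.05 at day 6. All 4 of its values lay below the median of all probe sets. Slc1a4, with a match 4 bases before its start, was lower at day 6, as given above, and Slc7a7 was higher by 0.58 and 0.29.

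All 30 genes of the amino acid response list were measured, and 29 reached the median of all probe sets. Between the days, 1 of the 30 was 2-fold higher in both genotypes, beside 5.87% of all genes, and 1 was 2-fold lower, beside 0.846%. In wt/wt organoids 1 was 2-fold lower, beside 1.86% of all genes, and in fl/fl organoids 7 were, beside 1.82%. The medians were -0.26 and -0.62. Cth, an enzyme that makes cysteine, was higher by 2.38 and 2.60, and Sesn2, which binds leucine and restrains mTORC1, lower (-1.30 and -1.32). The stress protein gene Nupr1 differed by -0.72 and -1.99, and Gpt2, a mitochondrial alanine aminotransferase, by -0.85 and -1.13. Between genotypes, 0 of the 30 were 2-fold different at either day, beside 0.868% of all genes higher and 0.066% lower at day 4. At day 6 the shares of all genes were 0.132% and 0.357%. The median genotype difference of the 30 was 0.32 at day 4 and 0.10 at day 6, beside 0.15 and 0.05 over the genes that reached the median. Asns differed by 0.61 and 0.11.

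A list of trafficking partners, scaffolds and peptidases was also compared, and not all of its genes act on the carriers described here. Of 9 listed genes 8 were measured, and 3 were 2-fold higher at day 6 in both genotypes, beside 5.87% of all genes. Dpep1, a brush border dipeptidase, was higher by 1.78 and 3.12, the scaffold gene Pdzk1 by 1.32 and 1.60, and Bsg, a chaperone of monocarboxylate carriers, by 1.08 and 1.34. The aminopeptidase Anpep, which associates with B0AT1, was higher by 0.84 and 1.32. Cltrn, the protein needed for Slc6a19 at the kidney brush border, stayed between 4.12 and 4.94, below the median of all probe sets, and ezrin (Ezr) was lower (-1.18 and -0.57).

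Amino acid carriers of other families, mostly of lysosomes, mitochondria and vesicles, were compared too. Of 17 listed genes 16 were measured, and their medians were -0.22 and -0.04. In both genotypes 0 were 2-fold higher, beside 5.87% of all genes, and 0 lower, beside 0.846%. Slc16a10, a plasma membrane carrier of aromatic amino acids, differed by -0.0047 and 0.71. The mitochondrial carrier Slc25a44, which takes branched-chain amino acids, was lower (-1.02 and -0.68), and the lysosomal cationic carrier Slc66a1 differed by -0.89 and -0.53. Of 33 genes that signal amino acid supply to mTORC1, 32 were measured. In both genotypes 2 were 2-fold higher, beside 5.87% of all genes, and 1 lower, beside 0.846%. The GTPase genes Rheb (1.90 and 1.96) and Rraga (1.45 and 2.07) were the higher ones, and Sesn2 the lower. Of 20 genes of amino acid and glutathione metabolism 15 were measured. Beside 5.87% of all genes, 1 of them was 2-fold higher in both genotypes. This was Oat, the ornithine aminotransferase, with differences of 2.58 and 3.81. Glud1, glutamate dehydrogenase, was higher by 1.12 and 0.90.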

How the data were processed

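The authors deposited 1 linear intensity for each of 45101 probe sets on each of 4 arrays. Per the labels' protocols, biotinylated cRNA was made from 100 ng of total RNA with a 3' in vitro transcription kit. How the intensities were summarised, background-corrected and normalized is not stated in those sources. The number of arrays limits the precision. Groups came from the titles. Intensities were analysed as log2(intensity + 16) without further normalization. Of the probe sets, 34945 have 1 gene symbol and are no controls, and 34741 of these took their current symbol, by Entrez ID, from RefSeq's GRCm38.p6 gene table, which also gave neighbouring genes. The probe set with the highest mean represented each of 18193 genes. All members were counted without a filter on low values. The members, gene lists and role groups were chosen with earlier results of these data known. Named with all intensities were members 2-fold between days in both genotypes, 2-fold between genotypes, or known from gut epithelium or growing cells; of each list, up to 4 genes with the largest day differences. Alternatives were pseudocounts of 1 and 64, quantile normalization, centring, the mean of probe sets, no x_at and s_at probe sets, a filter, and an additive limma fit. The 2-fold counts and limma fit were also run on simulated data with a chosen noise level, which cannot measure the error of these arrays. Python 3.11.15, R 4.3.3 and limma 3.58.1 were used.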

Additional observations from a re-analysis of the deposited data

Results flagged for a closer look

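In 4 genes the genotype difference had opposite signs at the 2 days and shifted by more than 1 on the log2(intensity + 16) scale. In each, fl/fl exceeded wt/wt organoids at day 4 and lay below them at day 6. The shift was -1.38 for Slc38a6, -1.23 for Slc3a2, -1.07 for Slc38a2 and -1.03 for Slc1a5. For Slc3a2 the day 6 difference was only -0.03, so its shift rests on the low wt/wt array at day 4. The median genotype difference of the 6 stem cell markers had the same change of sign, with 0.61 at day 4 and -0.45 at day 6. Of these markers, Olfm4 (-1.06 and -0.91) and Ascl2 (-0.14 and 0.16) did not follow. The part of the stem cell markers in these shifts was not tested. With 1 array a group the difference between the days was not tested. On the second probe set of Slc1a5 above the median, fl/fl was lower than wt/wt at both days (-0.43 and -0.78). On the 2 dimmer probe sets of Slc38a2 the genotype differences were -0.07 and -0.31 on one and 0.35 and 0.16 on the other. The second probe set of Slc38a6, below the median of all probe sets, gave -0.05 and -0.11.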

How the results depend on the processing

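The count of 4 members 2-fold higher at day 6 in both genotypes was kept under the other 2-fold counts, except that a pseudocount of 64 gave 3, without Slc6a19. Several of these counts could not differ for the 4. Slc3a1, Slc7a9 and Slc6a20a have 1 probe set each, so of the 4 the mean of probe sets could change only Slc6a19. All 4 reach the median and are read from probe sets that are neither x_at nor s_at. Dropping such probe sets and filtering at the median could therefore not change them. With a pseudocount of 1, 2 members were 2-fold lower at day 6 in both genotypes (Slc6a18 and Slc6a9), and 3 with quantile normalization (Slc1a4, Slc6a7 and Slc6a9). At day 4, a pseudocount of 1 gave 3 members 2-fold higher in fl/fl organoids (Slc36a4, Slc38a6 and Slc3a2) and 1 lower (Slc6a20b), a pseudocount of 64 gave 0 higher, and centring each array gave 2 (Slc38a6 and Slc3a2). The median day difference in wt/wt organoids was -0.23 with a pseudocount of 1 and 0.050 over the members reaching the median. The alternatives for the shift of the genotype difference were added after seeing the data: 2-fold upward shifts numbered 2 with a pseudocount of 1 and 1 with quantile normalization, and downward shifts 0 with a pseudocount of 64, 2 with quantile normalization and 1 with the mean of probe sets. The cause of these moves was not tested. Counts over all genes moved more. Genes 2-fold higher and lower at day 6 in both genotypes numbered 1068 and 154, 1463 and 268 with a pseudocount of 1, 530 and 58 with one of 64, 576 and 423 with quantile normalization, and 609 and 22 with the mean of probe sets. Those in fl/fl organoids at day 4 numbered 158 and 12, 447 and 189 with a pseudocount of 1, 24 and 3 with one of 64, 118 and 40 with quantile normalization, and 69 and 6 with the mean of probe sets. At day 6 the 24 and 65 became 64 and 116 with a pseudocount of 1, 10 and 27 with one of 64, and 21 and 24 with the mean of probe sets. The additive limma fit had 1 residual degree of freedom, and its calls, made by adjusted p-value and not by a 2-fold cut, are not given here. No paired analysis was possible because each group has 1 array and the labels give no replicate numbers.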
